A study of Mus musculus with 20 samples.

Results

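The leukocyte integrins described here are 10 genes, Itgam, Itgax, Itgal, Itga4, Itga5, Itgav, Itgb1, Itgb2, Itgb3 and Itgb7, found by symbol among the 23090 genes counted in each library. All 10 were found, and all 10 passed the low-count filter in every comparison. Itgb7 was chosen by its measured CBPi responses in these same libraries, which had opposite signs in the 2 cell types, so its values are given as a description with no test, and counts of genes that passed a test are out of the other 9. The RNA came from tumour myeloid cells of female SCID.beige mice 6 to 8 weeks old, a strain that lacks T, B and functional NK cells, that carried tumours grown from CT26, a colon carcinoma line of the mouse, or from MDA.MB.231-X1.1, a variant of a breast cancer line of human origin. Once tumours measured 150 to 200 mm3, mice were given 25 mg/kg GNE-781 (CBPi), a compound that blocks the bromodomain of CBP and that of its paralog EP300, both histone acetyltransferases, or the vehicle MCT, by mouth BID for 7 days. The populations called monocytic and granulocytic myeloid-derived suppressor cells (mMDSC and gMDSC) were sorted as CD45+, CD11b+, Ly6C+ and F4/80-, the gMDSC with Ly6G and the mMDSC without it. The 4 groups were CBPi mMDSC, vehicle mMDSC, CBPi gMDSC and vehicle gMDSC, with 5 libraries each, numbered 6 to 10 under CBPi and 1 to 5 under vehicle. The labels tie no library to a tumour line or to a mouse, so a difference in tumour line between groups cannot be told apart from the dose, and p-values measure only the spread between libraries.

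Integrins are receptors made of 1 alpha and 1 beta chain that bind matrix proteins or molecules on other cells. The beta-2 chain (Itgb2, CD18) is restricted to leukocytes and pairs with Itgal (CD11a, forming LFA-1), Itgam (CD11b, forming Mac-1) or Itgax (CD11c), which bind ICAMs, complement fragments and fibrinogen. Itga4 pairs with Itgb1 to bind VCAM-1 and fibronectin, and with Itgb7 to bind MAdCAM-1 on gut vessels, while Itga5 with Itgb1 and Itgav with Itgb3 or other beta chains bind fibronectin, vitronectin and related matrix. In myeloid cells these receptors serve arrest on vessel walls, migration and phagocytosis.

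The promoter windows of the 3 members whose levels stand out below are shown first, because Itgax fell under CBPi, Itgam is its neighbour and partner-sharing relative, and Itgb7 had the widest ratio between group means. The windows are RefSeq sequences of GRCm38.p6, from 250 bases before to 50 after a transcript start. They were given for 7 of the 10 members (Itgam, Itgax, Itga4, Itga5, Itgav, Itgb1 and Itgb7). Capitals mark the purine box GAGGAA, the RUNX site TGTGGT and the GC box GGGCGG, each on either strand.
Itgam, chr7:128062390-128062689, plus strand: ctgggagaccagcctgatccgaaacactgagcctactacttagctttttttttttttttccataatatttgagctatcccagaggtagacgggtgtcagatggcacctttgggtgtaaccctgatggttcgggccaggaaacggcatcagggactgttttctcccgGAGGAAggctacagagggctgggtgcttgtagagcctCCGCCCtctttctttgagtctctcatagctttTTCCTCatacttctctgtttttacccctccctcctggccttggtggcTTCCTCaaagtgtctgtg
Itgax, chr7:128129300-128129599, plus strand: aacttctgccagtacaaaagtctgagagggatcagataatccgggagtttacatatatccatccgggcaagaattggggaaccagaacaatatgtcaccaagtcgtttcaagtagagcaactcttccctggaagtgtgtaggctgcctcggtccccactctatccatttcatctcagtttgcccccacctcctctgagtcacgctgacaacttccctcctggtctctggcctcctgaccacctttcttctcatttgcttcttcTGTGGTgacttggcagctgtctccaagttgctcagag
Itgb7, chr15:102231886-102232185, minus strand: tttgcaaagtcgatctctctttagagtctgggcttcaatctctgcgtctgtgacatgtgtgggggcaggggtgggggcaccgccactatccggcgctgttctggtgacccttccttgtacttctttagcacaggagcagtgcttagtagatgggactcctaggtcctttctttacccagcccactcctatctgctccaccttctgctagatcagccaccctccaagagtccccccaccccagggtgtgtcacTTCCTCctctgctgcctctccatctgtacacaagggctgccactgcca
The Itgam window held 3 purine boxes, starting at -84, -15 and +33 from the transcript start, and 1 GC box at -47. The Itgax window held no purine box and 1 RUNX site at +14, and the Itgb7 window 1 purine box at +3. Of all 32851 windows of the same length, 28.3% held the purine box, 16.8% the RUNX site and 35.7% the GC box, and 96.0% held GGAA, the core of ETS sites, which lies inside the purine box. In the other 4 windows, Itgav held 2 purine boxes and Itga5 and Itgb1 held 1 each, while Itga4 held a RUNX site, and all 4 held a GC box. These matches describe letters and were not tested for binding. Itgam (chromosome 7, 128062640 to 128118491) ends 11034 bases before Itgax begins (128129526 to 128150657), and Itgal lies 727.5 kb before Itgam on the same chromosome. Itgb7 (102215994 to 102233405) and Itga5 lie on chromosome 15, with 1110.9 kb between them. The Itgb7 window lies inside the span of the gene, so its transcript start is not the outermost one. The transcript start used for Itgax also lies slightly inside its gene span.

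Libraries held 12.37 to 26.64 mega-counts. The CBPi gMDSC libraries held 19.74 to 22.43, and the vehicle gMDSC libraries 12.37 to 14.1 apart from library 5 at 23.27. The gate genes were checked first. Ly6g had 0.53 to 2.14 CPM in CBPi gMDSC and 0.44 to 9.20 CPM in vehicle gMDSC, against at most 0.40 CPM in any mMDSC library, and vehicle gMDSC 5 had the lowest value of its group. The summed level of 8 neutrophil markers was 6952 to 13280 CPM in CBPi gMDSC and 8584 to 34500 CPM in vehicle gMDSC, against 202 to 303 CPM in CBPi mMDSC and 329 to 389 CPM in vehicle mMDSC. Adgre1, which encodes F4/80, had 438 to 1520 CPM over the libraries although both gates were negative for the protein. It had 438 to 643 CPM in CBPi mMDSC and 741 to 966 CPM in vehicle mMDSC. In gMDSC it had 583 to 959 CPM under CBPi and 629 to 1520 CPM under vehicle. Of the gate genes, 0 rose and 4 fell of 5 tested in CBPi mMDSC (3.02% and 5.54% of all genes). In CBPi gMDSC 0 rose and 2 fell of 6 (4.18% and 5.52% of all genes). The genes for Ly6C fell under CBPi in both populations, Ly6c2 by 1.24 ± 0.18 in mMDSC (log2 ± SE, edgeR adjusted p = 0.00122) and by 1.41 ± 0.31 in gMDSC (adjusted p = 0.0141), and Ptprc (CD45) fell by 0.54 ± 0.09 in CBPi mMDSC (adjusted p = 0.00319). Vehicle gMDSC 3 stood apart, with a median correlation of 0.856 with the rest of its group, against 0.914 to 0.927 for the other vehicle gMDSC libraries.

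Compared per kilobase of the deposited gene width, Itgb2 had the highest level of the 10 members in 3 of the 4 groups. Its mean was 398.5 ± 67.6 CPM per kb (SD, n = 5) in CBPi mMDSC, 504.4 ± 71.5 in vehicle mMDSC, 402.9 ± 57.8 in CBPi gMDSC and 424.1 ± 52.1 in vehicle gMDSC. In CBPi gMDSC Itgam stood beside it at 406.5 ± 79.7 CPM per kb, with overlapping ranges. Next came Itgam and Itgb1 in mMDSC, at 198.2 and 148.5 CPM per kb under CBPi and 157.7 and 148.4 CPM per kb under vehicle, and the ranges of Itgam and Itgb1 overlapped in both. Itga4 and Itgav stood low in every group, between 17.6 and 29.5 CPM per kb, and did not differ beyond their spread within any group. Itgb3 was the lowest everywhere, between 0.42 and 1.36 CPM per kb. The order of Itgb7 depended on the group. Its rank among the 10 was 5 in CBPi mMDSC at 64.2 ± 5.3 CPM per kb, 6 in vehicle mMDSC at 75.1 ± 10.3, 7 in CBPi gMDSC at 34.3 ± 7.9 and 9 in vehicle gMDSC at 11.9 ± 4.3.

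**Figure D1:**
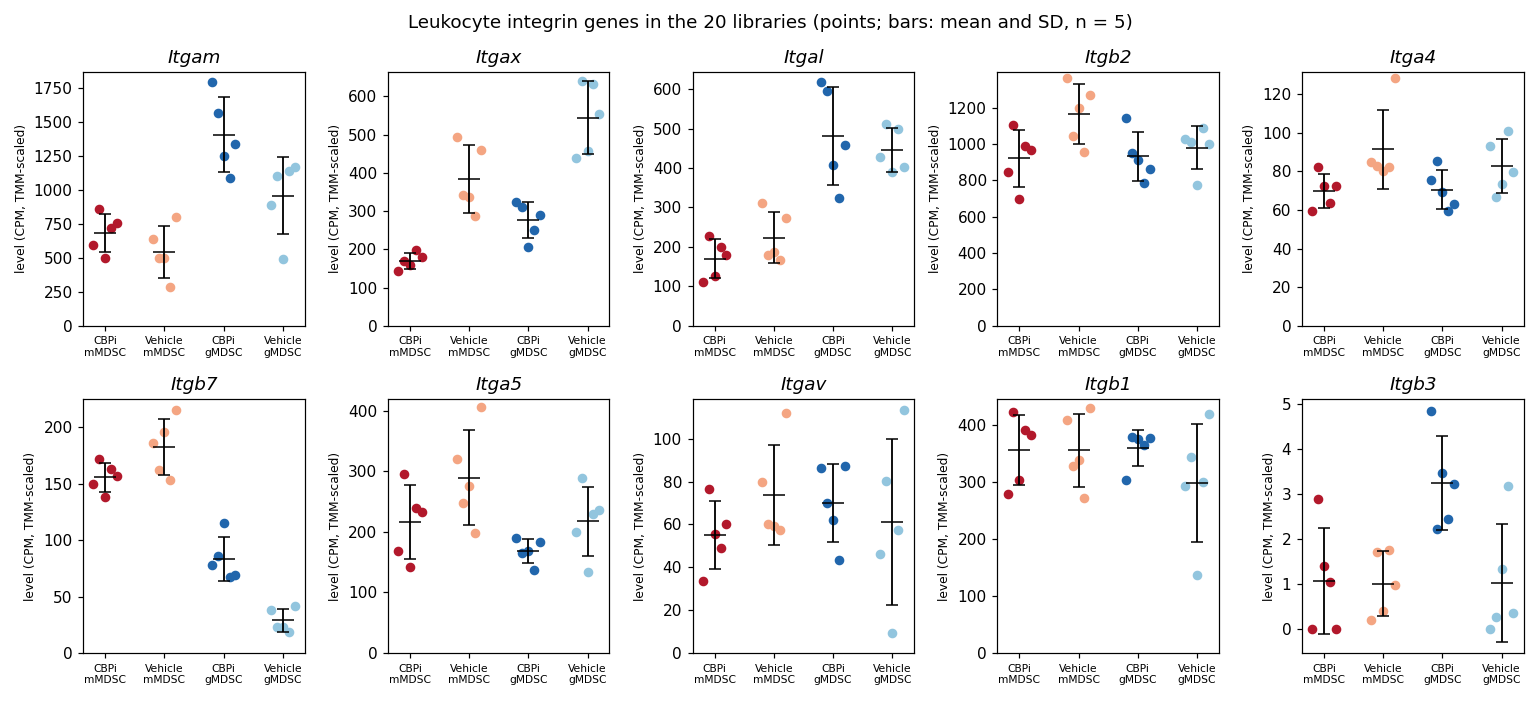
Level of each of the 10 genes (y axis, CPM on a scale common to all libraries) in the 4 groups (x axis); each point is 1 library, and the bars give mean and SD of 5 libraries. Itgax is lower in all 5 CBPi libraries than in every vehicle library of the same cell type, and Itgb7 is lowest in vehicle gMDSC.

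Of the 16 other integrin subunit genes, 3 stayed under 1 CPM in every library and 2, Itgb5 and Itga9, had at least 10 CPM in all. Itgb5, a beta chain that pairs with Itgav, had 259.7 ± 60.5 CPM per kb in CBPi mMDSC and 353.7 ± 94.4 in vehicle mMDSC, with 258.8 ± 45.9 in CBPi gMDSC and 349.8 ± 85.8 in vehicle gMDSC. Its mean level was over that of Itgb3, which also pairs with Itgav, in every group. Itga2b, the platelet partner of Itgb3, averaged 0.14 to 0.70 CPM per kb over the groups, and Itgae, the other alpha chain that pairs with Itgb7, 0.18 to 1.06 CPM per kb. Itgad, the fourth alpha chain that pairs with Itgb2, made up at most 0.30% of the summed level of those alpha chains in any library.

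**Figure D2:**
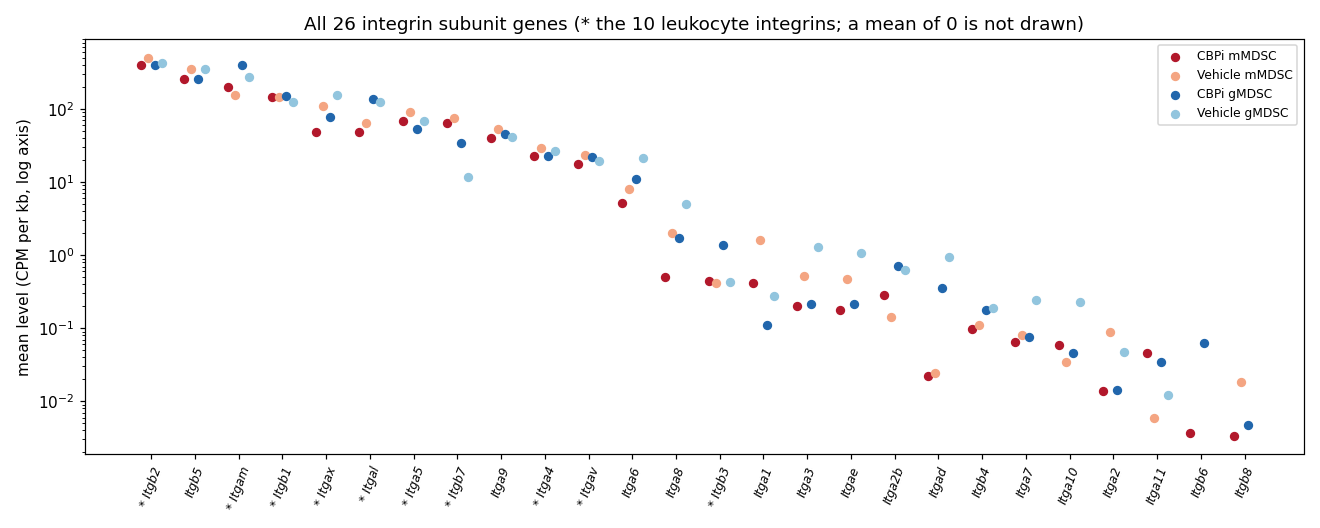
Mean level of all 26 integrin subunit genes (x axis, ordered by mean; asterisks mark the 10 leukocyte integrins) in CPM per kb on a log axis, 1 point per group of 5 libraries. Itgb2 leads, Itgb5 is the highest gene outside the 10, and Itgb3 is the lowest of the 10.

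Of the 9 members tested, 1 changed under CBPi, Itgax, and it fell in both cell types. This gene encodes CD11c, the alpha chain of the receptor also called p150,95, common on dendritic cells and present on monocytes and neutrophils. It had 144, 169, 158, 198 and 179.8 CPM in CBPi mMDSC, against 495, 342, 336, 288 and 459 CPM in vehicle mMDSC. The 5 CBPi libraries all lay below the lowest vehicle library, and the log2 fold change was -1.19 ± 0.16 (SE; edgeR quasi-likelihood adjusted p = 0.000596). In CBPi gMDSC it had 323, 312, 207, 251 and 289.7 CPM, against 439, 639.5, 457, 633 and 555 CPM in vehicle gMDSC. Again no CBPi library reached the lowest vehicle library, with a log2 fold change of -0.95 ± 0.18 (edgeR adjusted p = 0.00618). The ratio of group means was 0.442 in mMDSC and 0.508 in gMDSC, and the difference between the log2 responses, 0.20 ± 0.23 (gMDSC minus mMDSC), did not pass its test (edgeR adjusted p = 0.807).

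Of the 9 members tested, 1 was lower and 0 were higher under CBPi in mMDSC, where 5.54% of the 11912 genes tested were lower and 3.02% higher. In gMDSC likewise 1 was lower and 0 were higher, where 5.52% of 11694 genes were lower and 4.18% higher. At an unadjusted p under 0.05, 3 members passed in mMDSC (Itgax, Itga4 and Itgb2, all negative) and 2 in gMDSC (Itgax, and Itgam with a positive value). The share of all genes that passed without adjustment was not counted. The percentages above are for adjusted p and are no background for these unadjusted counts. Of the 9 log2 fold changes, 7 were negative in mMDSC, with a median of -0.40, and 4 were negative in gMDSC, with a median of 0.14, beside medians over all genes tested of 0.01 and 0.00. No member's response passed the interaction test between the cell types (0 of 9 in either direction, also 0 at an unadjusted p under 0.05 and 0 by DESeq2), where 0.497% of 12688 genes were higher and 0.229% lower. All 9 interaction values were positive, with a median of 0.27 beside -0.04 over all genes tested. These values rest on the same libraries, and all but that of Itgb3 were smaller without vehicle gMDSC 3. Itgam went from 0.22 to 0.06, Itgav from 0.61 to 0.335 and Itga5 from 0.06 to -0.07, while Itgb3 went from 1.59 to 1.71.

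**Figure D3:**
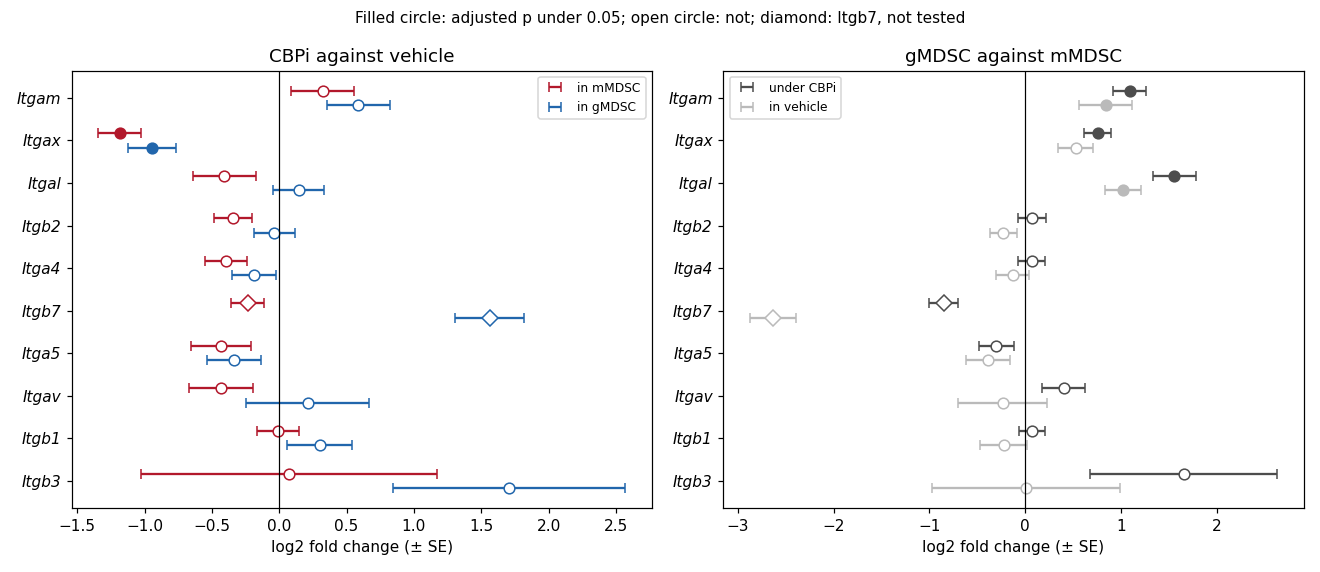
Log2 fold change ± SE of each gene, CBPi against vehicle in mMDSC and gMDSC (left) and gMDSC against mMDSC under CBPi and in vehicle (right); 5 libraries a group, filled circles have an adjusted p under 0.05 and diamonds mark Itgb7, which was not tested. On the left the filled points are Itgax in both cell types, and on the right the filled points are Itgam, Itgax and Itgal under CBPi and Itgam and Itgal in vehicle.

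Markers of other cells that carry CD11c were read beside this result. The summed level of 7 dendritic cell markers was 47.4 to 87.2 CPM in CBPi mMDSC and 30.3 to 51.1 CPM in vehicle mMDSC, and 17.4 to 37.5 CPM in CBPi gMDSC against 7.06 to 21.9 CPM in vehicle gMDSC. Within the list, Xcr1 and Clec9a, markers of cross-presenting dendritic cells, had lower means under CBPi in both cell types, all under 5 CPM. Xcr1 had 0 to 0.30 CPM in CBPi gMDSC and 0.42 to 4.96 CPM in vehicle gMDSC, and Clec9a had 0.25 to 0.48 CPM in CBPi gMDSC and 0.67 to 2.62 CPM in vehicle gMDSC. Of these markers 0 of 5 tested changed in mMDSC, and in gMDSC 1 of 4 tested rose, Ccr7, a chemokine receptor of migrating dendritic cells, by 2.71 ± 0.80 (log2, edgeR adjusted p = 0.0491). Beside these counts and those below, 3.02% of all genes tested rose and 5.54% fell in CBPi mMDSC. In CBPi gMDSC 4.18% rose and 5.52% fell. The sum of 6 macrophage markers was 5617 to 7650 CPM in CBPi mMDSC and 7219 to 8915 CPM in vehicle mMDSC, with 6146 to 11590 CPM in CBPi gMDSC and 11620 to 19380 CPM in vehicle gMDSC. Of these 6 markers, 1 rose and 3 fell in CBPi mMDSC, and 0 rose and 0 fell in CBPi gMDSC. Of 6 monocyte markers 0 rose and 3 fell in CBPi mMDSC, with Ccr2 at a log2 difference of -1.73 ± 0.13 (edgeR adjusted p = 7.84e-06), and of 8 neutrophil markers 0 rose and 3 fell in CBPi gMDSC, with the granule gene Ngp at -2.64 ± 0.65 (adjusted p = 0.0236). The part of these shifts in the fall of Itgax was not tested. Since these are bulk samples, fewer cells of a type and less RNA per cell cannot be told apart, for Itgax as for every other member.

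Itgam, the alpha chain of Mac-1 and the CD11b by which both populations were sorted, did not pass in either cell type under CBPi. It had 597, 858, 501, 721 and 756 CPM in CBPi mMDSC and 641, 499.9, 499, 289 and 803 CPM in vehicle mMDSC, with overlapping groups (log2 0.32 ± 0.23, edgeR adjusted p = 0.459). In CBPi gMDSC it had 1796, 1567, 1252, 1092 and 1336 CPM, against 893, 1102, 491, 1144 and 1168 CPM in vehicle gMDSC. Of the CBPi libraries 4 of 5 lay above all vehicle libraries, and the log2 difference was 0.59 ± 0.24 (edgeR adjusted p = 0.135).

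Itgal, the alpha chain of LFA-1, had 111, 228, 127, 201 and 181 CPM in CBPi mMDSC and 311, 180.3, 187, 166 and 274 CPM in vehicle mMDSC. The groups overlapped, with a log2 difference of -0.41 ± 0.23 (edgeR adjusted p = 0.333). In gMDSC it had 618, 594, 408, 325 and 459 CPM under CBPi and 429, 510.5, 389, 499.9 and 401 CPM under vehicle, the CBPi libraries lying on both sides of the vehicle range (log2 0.14 ± 0.19, edgeR adjusted p = 0.677).

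The shared beta chain Itgb2 had 849, 1107, 695, 989.6 and 967 CPM in CBPi mMDSC, against 1364, 1043, 1197, 958 and 1271 CPM in vehicle mMDSC. All 5 CBPi libraries were below the vehicle median but the ranges overlapped, and the log2 difference of -0.35 ± 0.14 passed only before adjustment (edgeR unadjusted p = 0.0292, adjusted p = 0.162). In gMDSC it had 1143, 953, 914, 785 and 864 CPM under CBPi and 1029, 1013, 774, 1087 and 1002 CPM under vehicle. This difference was -0.04 ± 0.15 on the log2 scale (edgeR adjusted p = 0.913).

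Set against each other per kilobase, the alpha chains that pair with Itgb2 differed in makeup between CBPi and vehicle libraries. Itgax made up 16.7 ± 2.4% (SD, n = 5) of their summed level in CBPi mMDSC and 33.6 ± 3.2% in vehicle mMDSC, and 12.8 ± 1.6% in CBPi gMDSC against 28.1 ± 3.6% in vehicle gMDSC. Itgam made up 67.2 ± 2.7% in CBPi mMDSC and 47.0 ± 5.2% in vehicle mMDSC, with 65.4 ± 1.5% in CBPi gMDSC and 48.6 ± 6.9% in vehicle gMDSC. Itgal shares lay closer, at 16.1 ± 2.0% and 19.4 ± 2.2% in CBPi and vehicle mMDSC and at 21.8 ± 1.6% and 23.2 ± 3.8% in CBPi and vehicle gMDSC. These shares are made of the levels already tested and carry no test of their own. The summed level of the alpha chains over that of Itgb2 was 0.738 ± 0.040 in CBPi mMDSC and 0.647 ± 0.113 in vehicle mMDSC, and 1.54 ± 0.15 in CBPi gMDSC and 1.31 ± 0.16 in vehicle gMDSC, so the ratio was higher in every gMDSC library than in every mMDSC library.

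**Figure D4:**
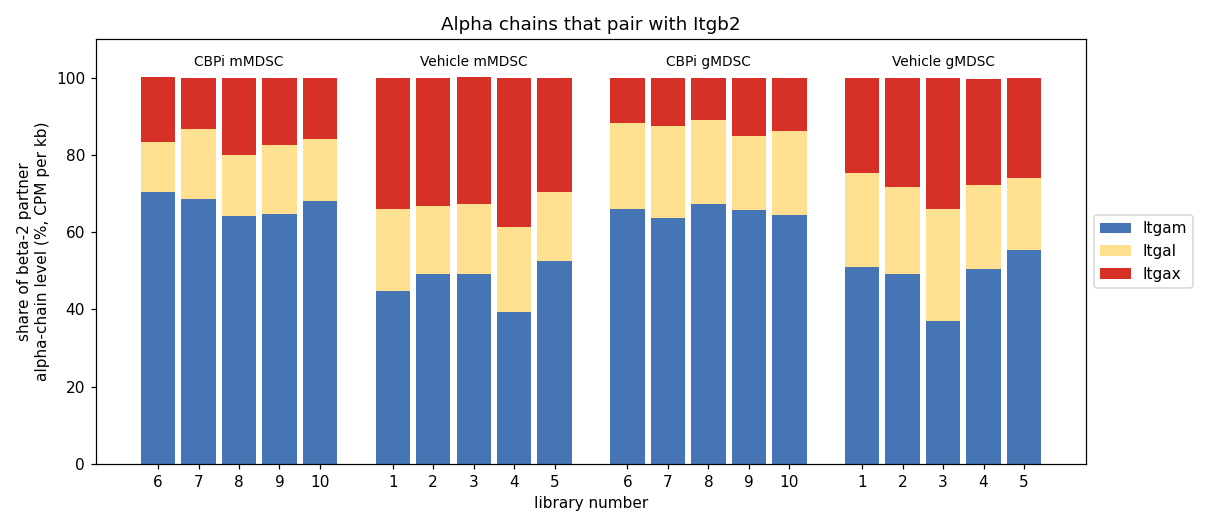
Share of Itgam, Itgal and Itgax in the summed level (CPM per kb) of the alpha chains that pair with Itgb2 (y axis, percent), 1 bar per library (x axis). The Itgax share lies between 11% and 20% in the 10 CBPi libraries and between 24.8% and 38.6% in the 10 vehicle libraries.

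Itgb7, the beta chain of the gut-homing receptor, had its lower levels in gMDSC and the widest ratio between group means of the members other than Itgb3. It had 150.0, 171, 138, 163 and 156 CPM in CBPi mMDSC and 186, 162, 195, 153 and 215 CPM in vehicle mMDSC. These groups overlapped, with all CBPi libraries below the vehicle median and a log2 difference of -0.24 ± 0.12. In CBPi gMDSC it had 78.0, 86.2, 115, 67.6 and 68.9 CPM, against 38.4, 22.8, 23.3, 18.2 and 41.8 CPM in vehicle gMDSC. Every CBPi gMDSC library lay above every vehicle gMDSC library, and the log2 difference was 1.56 ± 0.25. The difference of the log2 responses was 1.75 ± 0.28, the opposite directions for which the gene was picked out. Between the cell types Itgb7 was lower in gMDSC with no overlap, by a log2 value of -0.85 ± 0.15 under CBPi and -2.64 ± 0.24 in vehicle.

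Its partner chain Itga4 did not pass under CBPi in either cell type. Itga4 had 59.5, 82.1, 72.4, 63.6 and 72.3 CPM in CBPi mMDSC and 84.7, 82.6, 80.0, 82.1 and 128 CPM in vehicle mMDSC. Of the CBPi libraries 4 lay below all vehicle libraries, and the log2 difference of -0.40 ± 0.16 passed only before adjustment (edgeR unadjusted p = 0.0247, adjusted p = 0.147). In gMDSC it had 75.6, 85.2, 69.3, 59.6 and 63.0 CPM under CBPi and 93.4, 66.5, 73.3, 101 and 79.6 CPM under vehicle, overlapping groups with a log2 difference of -0.19 ± 0.16 (edgeR adjusted p = 0.501). Per kilobase the ratio of Itga4 to Itgb7 was 0.353 ± 0.045 in CBPi mMDSC and 0.393 ± 0.056 in vehicle mMDSC. It was 0.682 ± 0.122 in CBPi gMDSC and 2.50 ± 1.09 in vehicle gMDSC, and only in vehicle gMDSC did Itga4 exceed Itgb7.

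Markers of other cells that can carry Itgb7 were read beside it. Of the lymphocyte and NK list, Cd3e and Cd3g stayed under 1 CPM in all libraries, and the sum of its 10 genes was 2.26 to 10.6 CPM in CBPi gMDSC and 7.02 to 24.9 CPM in vehicle gMDSC. The sum of 12 mast cell, basophil and eosinophil markers was 16.2 to 23.9 CPM in CBPi gMDSC and 53.3 to 87.0 CPM in vehicle gMDSC, with Fcer1a, Ms4a2 and Prss34 at 0 in every library. Most of it was Siglecf, which fell by 1.97 ± 0.20 (log2, edgeR adjusted p = 9.37e-05). The mast cell genes Kit and Cpa3 averaged 0.999 ± 0.82 and 0.782 ± 1.03 CPM (SD) in CBPi gMDSC. In vehicle gMDSC they averaged 0.159 ± 0.26 and 0.143 ± 0.27 CPM, with overlapping ranges. Of this list 2 genes were tested in gMDSC, and 0 rose and 1 fell under CBPi (4.18% and 5.52% of all genes). The sum of 7 dendritic cell markers given above was 17.4 to 37.5 CPM in CBPi gMDSC, against 7.06 to 21.9 CPM in vehicle gMDSC, with overlapping ranges. The sum of 6 monocyte markers was 1693 to 2351 CPM in CBPi gMDSC and 1650 to 3745 CPM in vehicle gMDSC. Within it F13a1, a coagulation factor chain made by monocytes, rose by 3.36 ± 0.52 (edgeR adjusted p = 0.00203), to 12.7 to 52.9 CPM in CBPi gMDSC, against 0.76 to 4.42 CPM in vehicle gMDSC, while Ccr2, Ly6c2 and Cx3cr1 fell. In mMDSC, where Itgb7 was higher, F13a1 had 164 to 417 CPM under CBPi and 168 to 370.4 CPM under vehicle. The part of monocytic, mast or dendritic cells in the Itgb7 level of gMDSC was not tested.

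The 5 genes whose pattern over the 20 libraries was most like that of Itgb7 were Ifi209, Gpr171, Ifi208, Eps8 and Ifi214. Likeness was the root mean square difference of log2 CPM after centring each gene, over 12687 genes, and came to 0.373, 0.429, 0.452, 0.487 and 0.490 in that order. Ifi209, the most like, averaged 237 ± 8 CPM in CBPi mMDSC and 173 ± 30 CPM in vehicle mMDSC, and 94.3 ± 14 CPM in CBPi gMDSC and 27.7 ± 5.2 CPM in vehicle gMDSC. Unlike Itgb7, each of the 5 genes had a higher mean under CBPi in mMDSC as well, though Gpr171, Eps8 and Ifi214 within their SD. Gpr171 averaged 59.0 ± 11.2 and 54.3 ± 11.9 CPM in CBPi and vehicle mMDSC and 27.1 ± 7.4 and 11.3 ± 4.6 CPM in CBPi and vehicle gMDSC. Ifi208, Ifi209 and Ifi214 are close paralogs, and how reads shared between them were counted is not given in the sources used here.

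The fibronectin receptor chains Itga5 and Itgb1 did not pass under CBPi. Itga5 had 169, 295, 142, 240.0 and 233 CPM in CBPi mMDSC and 320.4, 248, 276, 197 and 406 CPM in vehicle mMDSC (log2 -0.43 ± 0.22, edgeR adjusted p = 0.285). In CBPi gMDSC it had 189.7, 165, 168, 138 and 184 CPM and in vehicle gMDSC 199, 289, 134, 229 and 237 CPM (log2 -0.34 ± 0.20, edgeR adjusted p = 0.315). All 5 CBPi gMDSC libraries lay below the vehicle median, and the groups overlapped in both cell types.

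Itgb1, the widely used beta chain, had 279, 423, 304, 391 and 382 CPM in CBPi mMDSC and 409.6, 329, 338, 272 and 431 CPM in vehicle mMDSC. The means were 356 CPM in both, with a log2 difference of -0.01 ± 0.16 (edgeR adjusted p = 0.987) that was 0.03 with upper-quartile scaling. In gMDSC it had 304, 378, 375, 365 and 377 CPM under CBPi and 293, 345, 136, 301 and 419 CPM under vehicle, a log2 difference of 0.30 ± 0.24 (edgeR adjusted p = 0.466). The vehicle gMDSC libraries spread on both sides of the CBPi ones.

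Itgav, the alpha chain of vitronectin receptors, had 33.6, 76.7, 55.6, 49.0 and 60.2 CPM in CBPi mMDSC and 79.9, 60.5, 59.1, 57.5 and 112 CPM in vehicle mMDSC (log2 -0.43 ± 0.24, edgeR adjusted p = 0.315). In gMDSC it had 86.6, 69.97, 61.9, 43.6 and 87.4 CPM under CBPi and 46.0, 80.5, 9.44, 57.3 and 113 CPM under vehicle. The groups overlapped, and the log2 difference was 0.21 ± 0.46 (edgeR adjusted p = 0.812), or -0.07 without vehicle gMDSC 3, the library at 9.44 CPM.

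Itgb3, the beta chain of the vitronectin receptor and of the platelet fibrinogen receptor, was counted 0 to 79 times a library. It had 4.86, 2.21, 3.46, 2.45 and 3.22 CPM in CBPi gMDSC, against 0, 0.254, 1.34, 3.18 and 0.351 CPM in vehicle gMDSC, where the library at 0 could hold up to 0.30 CPM (3 counts, counting error only). All 5 CBPi libraries lay above the vehicle median, the groups overlapped in vehicle gMDSC 4, and the log2 value of 1.71 ± 0.86 did not pass (edgeR adjusted p = 0.234). In mMDSC the values were 0, 2.88, 1.40, 1.04 and 0 CPM under CBPi and 0.196, 1.71, 0.404, 1.76 and 0.969 CPM under vehicle (edgeR adjusted p = 0.981), and the libraries at 0 could hold up to 0.118 CPM. The 10 platelet markers, read beside it because platelets carry Itgb3, summed to 51.9 to 67.8 CPM in CBPi gMDSC and 30.8 to 85.6 CPM in vehicle gMDSC, and to 83.2 to 266 CPM in CBPi mMDSC and 25.4 to 53.0 CPM in vehicle mMDSC. Most of that was the platelet chemokine gene Pf4, which rose by 1.84 ± 0.31 in CBPi mMDSC (log2, edgeR adjusted p = 0.00261), and Gp1bb, Gp6 and Treml1 stayed under 1 CPM in every library. The part of platelet RNA in the Itgb3 level was not tested.

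Between the cell types, the 3 alpha chains of the beta-2 family among the members were higher in gMDSC under CBPi, and Itgal was in vehicle too. Under CBPi, 3 of the 9 tested members were higher in gMDSC and 0 lower, where 20.1% of 11895 genes were higher and 19.1% lower. Itgal was higher by 1.56 ± 0.23 (log2, edgeR adjusted p = 0.000137), Itgam by 1.09 ± 0.17 (adjusted p = 0.000253) and Itgax by 0.76 ± 0.14 (adjusted p = 0.00095). In none of the 3 did a gMDSC library overlap with mMDSC. The share of all genes without overlap between groups was not counted, here or in the other comparisons. In vehicle, 2 of 9 were higher in gMDSC and 0 lower, where 13.6% of 11576 genes were higher and 8.08% lower. These were Itgal, by 1.02 ± 0.19 (edgeR adjusted p = 0.00175, no overlap), and Itgam, by 0.84 ± 0.28 (adjusted p = 0.0485, overlapping). The Itgam call in vehicle was lost, with an edgeR adjusted p of up to 0.109, when 1 library was left out in 8 of 10 cases, and was kept only without vehicle gMDSC 3 (0.0087) or vehicle mMDSC 5 (0.0264). Itgax in vehicle had a log2 value of 0.53 ± 0.18 with an edgeR adjusted p of 0.0557, and passed without vehicle gMDSC 3 (0.0369) or vehicle mMDSC 1 (0.0362).

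The beta chain they share did not pass in either cell type comparison, with log2 values of 0.07 ± 0.14 under CBPi and -0.23 ± 0.14 in vehicle for Itgb2 (edgeR adjusted p = 0.747 and 0.284). Itga4, Itga5, Itgav, Itgb1 and Itgb3 did not pass either, with log2 values between -0.30 and 1.65 under CBPi and between -0.39 and 0.01 in vehicle. The value of 1.65 ± 0.98 belongs to Itgb3 (edgeR adjusted p = 0.203), whose mean was 3.24 CPM in CBPi gMDSC and 1.06 CPM in CBPi mMDSC.

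Within a group the members tended to share a high or a low library. CBPi mMDSC 7 had the highest level of its group for 9 of the 10 members and CBPi mMDSC 6 the lowest for 6. Vehicle mMDSC 4 was lowest for 8 members and vehicle mMDSC 5 highest for 6. In CBPi gMDSC, library 9 was lowest for 7 members and library 6 highest for 6, and in vehicle gMDSC library 3 was lowest for 6. How often each library was highest or lowest over all genes was not counted, so this pattern may not be particular to the members. Itgb7 had the least spread of the 10 in CBPi mMDSC, with a coefficient of variation of 8.2%, and Itgav, leaving out Itgb3, the most in vehicle gMDSC, at 63.2%. With both vehicle gMDSC 3 and the library with little Ly6g, vehicle gMDSC 5, left out, 1 member was lower and 0 higher under CBPi in gMDSC, as with all libraries.

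**Figure D5:**
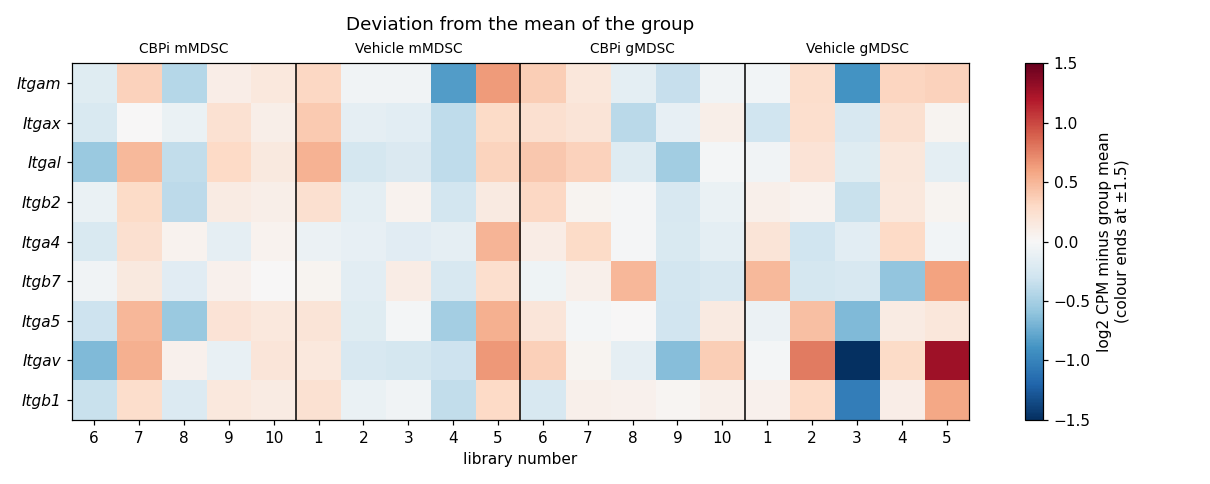
Log2 CPM minus the mean of its group (colour, log2 units) for 9 of the genes (rows; Itgb3 is left out for its low counts) in the 20 libraries (columns, by group). Vehicle gMDSC 3 is low for most members, and vehicle mMDSC 4 and CBPi mMDSC 6 are low for most members of their groups.

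Other genes of the pathway are given by list. Among genes that switch integrins on or tie them to actin, 0 rose and 8 fell of 32 tested in CBPi mMDSC (3.02% and 5.54% of all genes tested), with a median log2 value of -0.34 (0.01 over all genes). Fgr, a Src-family kinase that acts behind beta-2 integrins, fell by 1.09 ± 0.12 (edgeR adjusted p = 0.00017), Parvb, which links integrins to actin, fell by 0.93 ± 0.26 (adjusted p = 0.0464), and Fyb, the adaptor ADAP, by 0.74 ± 0.19 (adjusted p = 0.028). In CBPi gMDSC 1 rose and 5 fell of 31 (4.18% and 5.52% of all genes), with a median of -0.22 (0.00 over all genes). Itgb1bp1, which binds the beta-1 tail, fell by 0.90 ± 0.25 (edgeR adjusted p = 0.04), Fyb by 0.87 ± 0.17 (adjusted p = 0.00736) and Fermt3 (kindlin-3, which activates beta chains) by 0.71 ± 0.14 (adjusted p = 0.00772), while Cyth1, which binds the beta-2 tail, rose by 1.15 ± 0.28 (adjusted p = 0.0209). The Cyth1 response differed between the cell types by 1.49 ± 0.34 (edgeR adjusted p = 0.0427).

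Against those same shares of all genes, among integrin ligands 2 rose and 1 fell of 15 in CBPi mMDSC, with a median of -0.21, and 1 rose and 1 fell of 16 in CBPi gMDSC, with a median of -0.23. Vcam1, a ligand of the Itga4 receptors, fell in both, by 1.81 ± 0.35 in mMDSC (edgeR adjusted p = 0.00666) and 1.30 ± 0.30 in gMDSC (adjusted p = 0.0166). Mfge8, which bridges Itgav receptors to dying cells, rose by 1.03 ± 0.22 in mMDSC (edgeR adjusted p = 0.01), and Spp1 (osteopontin) by 0.55 ± 0.15 (adjusted p = 0.0406). Thbs1, thrombospondin-1, had 359 to 1598 CPM in CBPi gMDSC and 22.7 to 56.0 CPM in vehicle gMDSC and rose by 4.47 ± 0.48 (edgeR adjusted p = 0.000134). Its response in gMDSC was greater than in mMDSC by 3.73 ± 0.61 (edgeR adjusted p = 0.00385).

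Of 9 membrane partners of integrins, 1 rose and 2 fell in CBPi mMDSC, and 0 rose and 2 fell in CBPi gMDSC, where 3.02% rose and 5.54% fell of all genes in mMDSC and 4.18% and 5.52% in gMDSC. Selplg, the selectin ligand PSGL-1 that acts before integrins in arrest, fell by 0.71 ± 0.11 in mMDSC (edgeR adjusted p = 0.00151) and 0.89 ± 0.15 in gMDSC (adjusted p = 0.00375). The tetraspanin gene Cd9 rose by 1.00 ± 0.16 in mMDSC (edgeR adjusted p = 0.00201), a response lower in gMDSC by 1.39 ± 0.32 (interaction adjusted p = 0.0438). Between the cell types, 6 of 9 partners were higher in gMDSC under CBPi and 7 of 9 in vehicle, and 0 were lower in either. Of all genes, 20.1% were higher and 19.1% lower in gMDSC under CBPi, and 13.6% and 8.08% in vehicle. Cd9 was higher by 3.50 ± 0.23 under CBPi (edgeR adjusted p = 1.34e-07) and 4.85 ± 0.25 in vehicle (adjusted p = 5.48e-08). Of the activation genes 16 were higher and 4 lower of 31 in gMDSC under CBPi, and 9 higher and 2 lower of 31 in vehicle, to be read against the same shares of all genes, with Actn1, an actin crosslinker, higher by 2.72 ± 0.22 under CBPi (edgeR adjusted p = 8.3e-07) and 2.85 ± 0.30 in vehicle (adjusted p = 2.14e-05).

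Among the 16 other integrin subunits, 0 of 8 tested changed in CBPi mMDSC, with a median log2 value of -1.01 and a lowest of -2.03. Of all genes tested there, 3.02% rose and 5.54% fell. The 2 of them with at least 10 CPM in all libraries, Itgb5 and Itga9, had log2 values of -0.45 ± 0.21 and -0.42 ± 0.19 (edgeR adjusted p = 0.227 and 0.23). In CBPi gMDSC, with a median of -1.06, 2 of 10 fell (5.52% of all genes), both at low levels. Itga3 fell by 2.52 ± 0.73 (edgeR adjusted p = 0.0459) and Itga8 by 1.5 ± 0.33 (adjusted p = 0.0131). Itga3 had 0.32 to 1.23 CPM in CBPi gMDSC and 0.70 to 10.2 CPM in vehicle gMDSC. A gene with few counts can pass the filter through its higher group alone. The list medians of -1.01 and -1.06 and the Itga3 call may be shaped in part by that selection. Itga6, the alpha chain of laminin receptors, was higher in gMDSC by 1.14 ± 0.23 under CBPi (edgeR adjusted p = 0.00183) and by 1.46 ± 0.40 in vehicle (adjusted p = 0.0203), and Itga8 by 1.84 ± 0.61 (adjusted p = 0.0282) and 1.31 ± 0.33 (adjusted p = 0.012).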

How the data were processed

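Whole-number read counts per gene were deposited by the authors as 1 file for each of 20 libraries, with 23090 Entrez IDs and a gene width, without normalization. Per the submitters' processing notes reads were aligned with GSNAP to GRCm38. Which counter and annotation were used, and whether strand was, is not given in these sources. Libraries were made from poly-A RNA with TruSeq V2, per the labels' protocols. Symbols for 21647 IDs came from a RefSeq table of GRCm38.p6. The deposited widths, multiples of 3 in 79.97% of genes, were used for levels per kilobase. Each library held between 12.37 and 26.64 mega-counts.

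The test was the quasi-likelihood F test of edgeR 4.0.16, run in R 4.3.3 (TMM scaling, filterByExpr with a minimum count of 10 and a total of 15 within each comparison), with Benjamini-Hochberg adjustment over all genes and a threshold of 0.05. The comparisons were CBPi against vehicle in each cell type, the difference of these responses in 20 libraries, and gMDSC against mMDSC under each treatment. A standard error is the size of the log2 fold change divided by the square root of F. Levels in CPM use 1 TMM scaling of all 20 libraries. The scripts were tested on simulated data. Alternatives were other size factors, no filter, DESeq2 1.42.0, limma-voom (limma 3.58.1), 1 fit of all libraries, a replicate block and leaving out each library.

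The members and lists were chosen with earlier results of these data known. All 10 members were named whatever their result, of each other list at most 4 that passed per comparison, with the gate genes. Markers and other genes given beyond that rule were chosen after their values were seen. Some genes of the lists are not reported here by name. Figures were drawn with matplotlib.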

Additional observations from a re-analysis of the deposited data

Results flagged for a closer look

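In 3 of 40 groups of 5 libraries (10 members in 4 groups), 1 library lay far from the others by Dixon's test on log2 CPM, where chance flags about 1 in 20 groups. Itga4 had 128 CPM in vehicle mMDSC 5, against 80.0 to 84.7 CPM in the other vehicle mMDSC libraries, a gap of 0.88 of the range of the group. Itgb1 had 304 CPM in CBPi gMDSC 6, against 365 to 378 CPM in the other CBPi gMDSC libraries, a gap of 0.834 of the range. Itgb2 had 774 CPM in vehicle gMDSC 3, where its 4 companions had 1002 to 1087 CPM, a gap of 0.759 of the range. The cause of these values was not tested.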

How the results depend on the processing

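Itgax stayed lower under CBPi in both cell types, and Itgal stayed higher in gMDSC under both treatments, in every alternative run. Under CBPi the calls of Itgam and Itgax between the cell types also held in every one. In vehicle, 1 member was higher in gMDSC with upper-quartile scaling and with no filter (Itgam adjusted p = 0.0569 and 0.0566), and 1 to 3 with 1 library left out. Itgax passed there in DESeq2 (0.025), limma-voom (0.0447) and the fit of all 20 libraries (0.0263). Itgb3 between the cell types under CBPi passed in limma-voom (3.73, adjusted p = 0.0171) but not in edgeR (1.65, adjusted p = 0.203). That pass rests on few counts, with 0 counts in CBPi mMDSC 6 and 10, and Itgb3 passed the filter there through its higher group, CBPi gMDSC. Scalings moved the median of all genes by at most 0.047. The causes were not tested.

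Members that did not pass changed sign in places. In mMDSC under CBPi, Itgb1 was 0.026 with upper-quartile scaling and 0.001 in the fit of all libraries, and -0.085 to 0.075 with 1 library left out, and Itgb3 was -1.77 in limma-voom and -0.753 to 0.394 with 1 left out. In gMDSC, Itgb2 was -0.119 to 0.023 and Itgav -0.069 to 0.57 with 1 left out. The Itga5 difference of responses was -0.074 without vehicle gMDSC 3 and 5 and -0.074 to 0.262 with 1 left out. Between the cell types in vehicle, Itgb3 was -0.008 with upper-quartile scaling, -0.004 with no filter and -0.77 in limma-voom. With 1 library left out it was -1.053 to 0.338, Itga4 -0.21 to 0.014 and Itgav -0.598 to 0.017. Under CBPi, Itga4 was -0.013 to 0.131, Itgb1 -0.007 to 0.142 and Itgb2 -0.019 to 0.146.

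Counts over all genes also moved. Under CBPi in mMDSC DESeq2 called 678 higher, the fit of all libraries 165, and leaving out 1 library gave 221 to 448 higher and 473 to 695 lower. In gMDSC DESeq2 called 866 higher and 1060 lower, the fit of all libraries 872 and 1310, and leaving out 1 library gave 229 to 658 and 358 to 736. For the interaction DESeq2 called 184 higher and 93 lower, limma-voom 17 lower, and leaving out 1 library gave 23 to 85 and 10 to 32. In vehicle the fit of all libraries called 1519 lower in gMDSC, and leaving out 1 library gave 1351 to 1749 higher and 676 to 1521 lower.

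Same-numbered libraries of the 2 cell types had correlated deviations (r over 0.1) in 2 of 10 pairs, from -0.031 to 0.168. Of the mMDSC libraries, 4 of 10 correlated best with their own number. Such correlations cannot decide whether same-numbered libraries came from 1 mouse, and the main fits had no replicate block. With the replicate block 33 genes were higher and 19 lower in the interaction, 1 member was higher in gMDSC in vehicle (Itgam adjusted p = 0.0639), and Itgb3 was -0.66 there. Leaving out vehicle gMDSC 3 and 5 together was chosen after seeing the data. Depth limits Itgb3, with at most 79 counts a library.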
